A study of Coturnix japonica with 16 samples.

Results

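The liver makes most of the proteins that circulate in blood plasma, and 33 genes for such proteins were followed here through 16 livers of Japanese quail (Coturnix japonica). The genes encode the 3 chains of fibrinogen, clotting factors, their inhibitors, complement components and other acute phase proteins. They were matched by symbol to the gene numbers of the count table. The matching uses no measured value, but the list itself was chosen with earlier results of these data known. Of the 33, 29 had counts, and all 29 passed the filter on low counts, among 13748 genes tested. F10, F13B, PLG and C9 had no match and were not analysed here.

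Clotting runs as a chain of serine proteases, in which factors such as F7, F9 and F2 (prothrombin) cut one another and thrombin finally turns fibrinogen into fibrin. Inhibitors such as antithrombin (SERPINC1) and the protein C pathway hold the chain back, and complement is a related set of plasma proteins in which C3 and C5 are cut and C6 to C9 join into a membrane pore. Hepatocytes secrete nearly all of these proteins, and in mammals inflammation raises fibrinogen and C3 (positive acute phase proteins) and lowers others such as AHSG. Estrogens given by mouth are known in humans to alter the levels of clotting factors and their inhibitors in plasma.

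RNA came from the left liver lobe of birds aged 12 weeks, held under a day of 8 hours light and 16 hours dark. After a fast of 16 hours, each bird was dosed into the crop with 4 mL/kg of corn oil. The oil was given alone (solvent, 6 birds) or carried ethinylestradiol, a synthetic estrogen, at 0.5 mg/kg (5 birds) or 5 mg/kg (5 birds), so the corn oil and the fast were common to all birds. Neither the sex of the birds nor the interval from dose to sampling is given in the sources. The library totals were 24020983 to 38156102 counts for solvent, 15173021 to 30106089 for 0.5 mg/kg and 15825784 to 46192737 for 5 mg/kg. Levels are in CPM, counts divided by a library size scaled by TMM and set to a common total, and they are not divided by transcript length, so they are compared between birds and not between genes. Fewer hepatocytes and less RNA per hepatocyte cannot be told apart in whole liver. Albumin (ALB), the defining hepatocyte product, stood at 95565 ± 24958, 115186 ± 26095 and 102272 ± 18989 CPM (mean ± SD) in the solvent, 0.5 mg/kg and 5 mg/kg birds.

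A few libraries stood apart over these genes. Solvent replicate 1 was the lowest of the 16 birds for 13 of 29 members, and 5 mg/kg replicate 2 was the highest for 12 of 29. Solvent replicate 1 also had the highest TMM factor, 1.30 against 0.876 to 1.13 in the other libraries. A high factor lowers the CPM of a bird relative to its library total. Solvent replicate 4 held far more fibrinogen RNA than the other solvent birds. The excess was not confined to fibrinogen. Of other plasma protein genes, ORM2 was at 2430 CPM in this bird, against 26.4 to 294 CPM in the other solvent birds. HPX was at 12243 CPM, against 1062 to 5873 CPM. Its ALB, at 105463 CPM, lay within the range of the others, 53516 to 123505 CPM. ORM2 and HPX were picked out after their values were seen. The birds also fall into 2 classes by the number in their labels, 9 birds with the numbers 1 to 3 and 7 with the numbers 4 to 6, which differ in Z-linked genes. The median log2 difference of 4 to 6 against 1 to 3 was -0.46 over 613 Z-linked genes, against -0.0096 over all genes. Each dose group held both classes.

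Fibrinogen RNA was higher on average in the dosed birds, and its 3 chains moved together from bird to bird. FGA, FGB and FGG encode the alpha, beta and gamma chains of the clot protein, and FGA lies between the other genes on chromosome 4 with no gene between them, in the assembly Coturnix japonica 2.1. Summed over the chains, fibrinogen stood at 1.49 ± 0.927% of the library size scaled by TMM in the 6 solvent birds (mean ± SD). It was 2.08 ± 0.644% in the 5 birds at 0.5 mg/kg and 2.36 ± 0.705% in the 5 birds at 5 mg/kg. These are not shares of the raw counts.

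FGA had a lowest, median and highest level of 3108, 3814 and 10070.5 CPM in solvent birds. At 0.5 mg/kg the FGA level was 7102, 6506, 6759, 3981 and 9867 CPM in replicates 1 to 5, and at 5 mg/kg it was 8508, 10828, 6117, 6523 and 4993 CPM, and the other genes are given in the same order. All 5 birds at 5 mg/kg and 4 of 5 at 0.5 mg/kg lay above the solvent mean, but the groups overlapped because solvent replicate 4, at 10070.5 CPM, was above every dosed bird except 5 mg/kg replicate 2. FGB ran through 3707, 4645 and 13942 CPM in solvent birds, 8816, 7913, 8180.0, 5351 and 12694 CPM at 0.5 mg/kg and 10330.3, 14564, 7517, 9539 and 7557 CPM at 5 mg/kg. FGG ran through 2400.4, 2791 and 9428 CPM in solvent birds, 5986, 5154, 5159, 2975 and 7759 CPM at 0.5 mg/kg and 6234, 9663, 4789.9, 5856 and 5066 CPM at 5 mg/kg. Without solvent replicate 4, the highest solvent bird for each chain was replicate 3, at 4369.6, 6318 and 3566 CPM for FGA, FGB and FGG. Each of the 5 birds at 5 mg/kg lay above these values. Replicate 4 was set aside after its values were seen. The share of all genes that would separate after such a choice was not counted, so no separation of the groups is read from this.

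**Figure D1:**
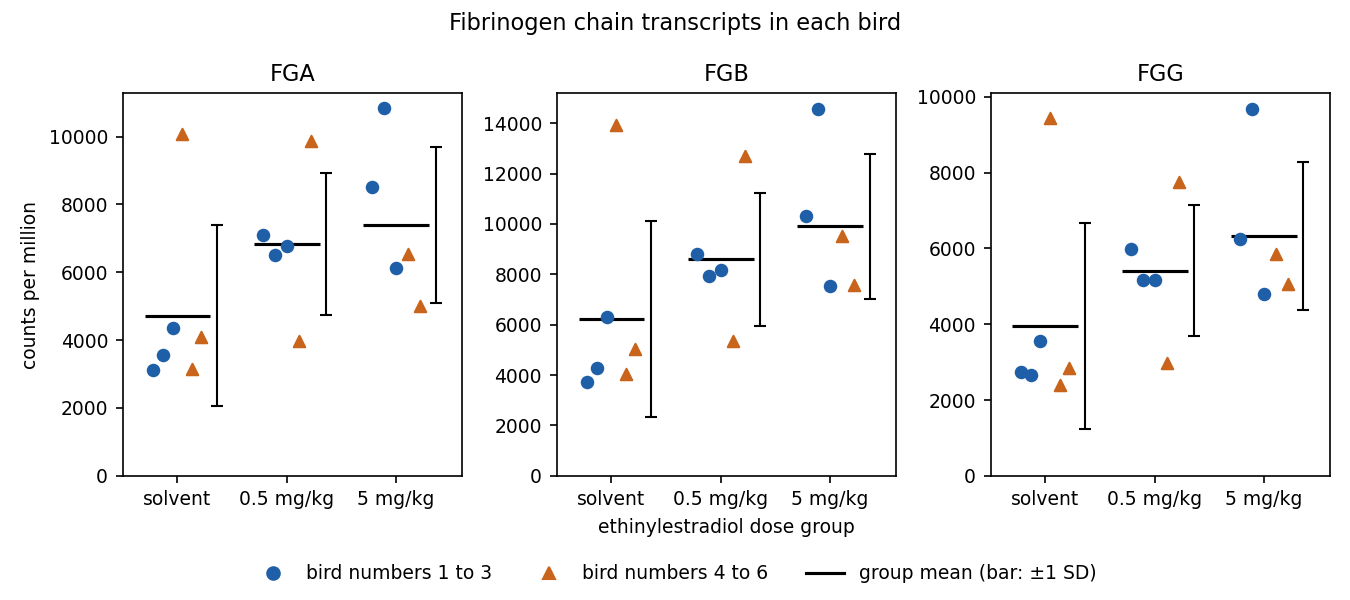
CPM (vertical axis, linear, from 0) of FGA, FGB and FGG in each of the 16 birds by dose group (horizontal axis), with symbols for the class of bird numbers, a line at the group mean and a bar of ±1 SD beside it. In each panel 1 solvent bird, replicate 4, sits near the top of the range (10070.5 CPM for FGA) while the other 5 solvent birds sit below all birds at 5 mg/kg. That bird was picked out after its values were seen, and with it the groups overlap.

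None of these differences passed the test over all genes, which called 0 of 3 chains at 5 mg/kg, where it called 0.0436% of all genes, and 0 of 3 at 0.5 mg/kg, where it called 0%. The log2 fold change at 5 mg/kg was 0.65 (SE 0.32) for FGA, 0.67 (SE 0.33) for FGB and 0.68 (SE 0.35) for FGG, or 1.57-, 1.59- and 1.60-fold, with adjusted p-values of 0.524, 0.527 and 0.534 in edgeR's quasi-likelihood test. At 0.5 mg/kg it was 0.54 (SE 0.32), 0.47 (SE 0.33) and 0.46 (SE 0.35), with adjusted p-values of 0.682, 0.747 and 0.765. Without solvent replicate 4 the values at 5 mg/kg became 1.02, 1.08 and 1.15 for FGA, FGB and FGG, and those at 0.5 mg/kg 0.91, 0.88 and 0.93, and still none passed (lowest adjusted p 0.153, for FGG at 5 mg/kg). Without 5 mg/kg replicate 2 the values at 5 mg/kg fell to 0.47, 0.49 and 0.48 for FGA, FGB and FGG. Without 0.5 mg/kg replicate 5 the values at 0.5 mg/kg were 0.37, 0.28 and 0.29. Between the doses the log2 differences of 5 against 0.5 mg/kg were 0.11 (SE 0.33), 0.20 (SE 0.35) and 0.23 (SE 0.37), each smaller than its SE.

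The chains kept close to a fixed ratio in all 3 groups. Over the 16 birds the SD of the log2 level was 0.60 for FGA, 0.62 for FGB and 0.65 for FGG, while the SD of the log2 ratio was 0.11 for FGA to FGB, 0.15 for FGA to FGG and 0.11 for FGB to FGG. Most of the bird-to-bird spread was therefore common to the 3 chains, which share the library of each bird. Another neighbouring pair, C8A and C8B on chromosome 8, which encode chains of the same complement component, did not keep a ratio as close, with SDs of 0.44 and 0.64 for the levels and 0.47 for the log2 ratio.

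The mean fibrinogen difference was larger in the birds numbered 1 to 3 than in those numbered 4 to 6, though not past the test. In the numbers 1 to 3 the 3 solvent birds had FGA at 3108, 3549 and 4369.6 CPM, and each of the 6 dosed birds was above them, as was so for FGB and FGG. In the numbers 4 to 6 the solvent birds had FGA at 10070.5, 3138 and 4079.9 CPM and enclosed all 4 dosed birds. Within the numbers 1 to 3 the log2 fold change at 5 mg/kg, in a fit with dose, class and their interaction, was 1.21 for FGA, 1.18 for FGB and 1.20 for FGG, and within 4 to 6 it was -0.0012, 0.16 and 0.16. For 0.5 mg/kg it was 0.89, 0.80 and 0.86 within 1 to 3 and 0.26, 0.24 and 0.14 within 4 to 6. The difference between the classes at 5 mg/kg had an adjusted p of 0.990 for FGA in edgeR's quasi-likelihood test. The class 4 to 6 had 3 solvent and 2 dosed birds at either dose and held solvent replicate 4.

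The clotting proteases and cofactors had small mean differences. All 4 measured members, F2, F5, F7 and F9, had means above solvent at both doses, where 46.9% of all genes lay above solvent at 0.5 mg/kg and 49.8% at 5 mg/kg. The test called 0 of 4 in either comparison (background 0% and 0.0436%).  F5, the cofactor that speeds the making of thrombin, ran through 845, 997 and 1312 CPM (lowest, median, highest) in solvent birds, 1025, 1647, 821, 1258 and 1928 CPM at 0.5 mg/kg and 1727, 2165, 936, 911 and 544 CPM at 5 mg/kg. Its 5 mg/kg birds lay on both sides of the solvent range, with replicates 1 and 2 above it and replicate 5 below. Its log2 fold change was 0.29 (SE 0.30, adjusted p 0.783 in edgeR) at 5 mg/kg and 0.38 (SE 0.30, adjusted p 0.773) at 0.5 mg/kg, and at 5 mg/kg it was 0.0077 without replicate 2 and 0.49 without replicate 5. Without replicate 5 of 0.5 mg/kg it was 0.21 at that dose. In the fit with dose, class and their interaction, the value for F5 at 5 mg/kg was 0.76 (SE 0.34) within the numbers 1 to 3 and -0.59 (SE 0.39) within 4 to 6, and the difference between the classes had an adjusted p of 0.990 (unadjusted p 0.0217) in edgeR.

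F9, the protease lacking in haemophilia B in humans, ran through 275, 358 and 454 CPM in solvent birds, 458, 422, 484, 363 and 444 CPM at 0.5 mg/kg and 577, 549, 302, 381 and 293 CPM at 5 mg/kg. All 5 birds at 0.5 mg/kg lay above the solvent mean, within a range that overlapped the solvent birds, and the log2 fold change was 0.26 (SE 0.20) there and 0.21 (SE 0.20) at 5 mg/kg. The value for F2, prothrombin, which was singled out after its values were seen, was 0.23 (SE 0.19) at 0.5 mg/kg and 0.16 (SE 0.19) at 5 mg/kg. Single birds carried much of these values. Left out, 5 mg/kg replicate 1 took that of F9 to 0.071, 5 mg/kg replicate 2 took that of F2 at 5 mg/kg to 0.067, and 0.5 mg/kg replicate 5 took that of F2 at 0.5 mg/kg to 0.15. F7, which starts clotting with tissue factor, was the steadiest of all 29 members, at 342 ± 32.1, 351 ± 46.3 and 344 ± 33.8 CPM in the 3 groups. Its SD within groups was 0.16 on the log2 scale, and 4.61% of all tested genes had a smaller one. Its log2 fold changes of 0.036 and 0.010 had an SE of 0.12, the smallest of the 29 members.

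The anticoagulants and protease inhibitors stayed near the solvent level as a group. Of 11 measured members, 9 had a mean above solvent at 0.5 mg/kg (median log2 fold change 0.11) and 7 at 5 mg/kg (median 0.035), against 46.9% and 49.8% of all genes. The test called 0 of 11 at either dose (background 0% and 0.0436%). PROS1, protein S, the cofactor of activated protein C, ran through 486, 580.2 and 674 CPM in solvent birds, 781, 773, 734, 648 and 692 CPM at 0.5 mg/kg and 551, 699, 497, 771 and 416 CPM at 5 mg/kg. At 0.5 mg/kg, 4 of 5 birds were above every solvent bird, while the birds at 5 mg/kg reached beyond the solvent range on both sides. The log2 fold change of PROS1 was 0.33 (SE 0.16, adjusted p 0.614 in edgeR) at 0.5 mg/kg and 0.025 (SE 0.16, adjusted p 0.974) at 5 mg/kg, where it was -0.092 without replicate 4 of that dose and 0.13 without replicate 5.

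The inter-alpha-trypsin inhibitor heavy chains ITIH2 and ITIH3, which bind hyaluronan in the matrix, had the lowest and the highest log2 difference between the doses. ITIH2 ran through 769, 980.4 and 1196 CPM in solvent birds, 1167, 1329, 1131, 1058 and 1559 CPM at 0.5 mg/kg and 979.9, 1261, 899, 1157 and 594 CPM at 5 mg/kg. Its log2 difference of 5 against 0.5 mg/kg was -0.35 (SE 0.20, adjusted p 0.744 in edgeR) and -0.22 without 5 mg/kg replicate 5. Against solvent ITIH2 was at 0.34 (SE 0.19) at 0.5 mg/kg and -0.014 (SE 0.19) at 5 mg/kg. ITIH3 ran through 848, 1061 and 1722 CPM in solvent birds, 1421, 447, 978, 855 and 1080.0 CPM at 0.5 mg/kg and 1152, 2761, 645, 745 and 1315 CPM at 5 mg/kg. Its log2 difference of 5 against 0.5 mg/kg was 0.47 (SE 0.36, adjusted p 0.831) and 0.011 without 5 mg/kg replicate 2, the bird with 2761 CPM. Against solvent ITIH3 was at -0.26 (SE 0.35, adjusted p 0.883 in edgeR) at 0.5 mg/kg, the lowest of the members at that dose. At 5 mg/kg it was at 0.21 (SE 0.35).

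AHSG, fetuin A, which keeps calcium phosphate in solution and falls in inflammation in mammals, had the lowest log2 fold change of the members at 5 mg/kg. It ran through 3318, 5528 and 7451 CPM in solvent birds, 7279, 5444, 4536, 3512 and 5641 CPM at 0.5 mg/kg and 3190.4, 3609.7, 4920.2, 6668 and 4783 CPM at 5 mg/kg. 4 of 5 birds at 5 mg/kg were below the solvent mean and 1 was below every solvent bird. The log2 fold change was -0.26 (SE 0.24, adjusted p 0.751 in edgeR) at 5 mg/kg and -0.072 (SE 0.24, adjusted p 0.956) at 0.5 mg/kg. The value at 5 mg/kg moved between -0.43 without 5 mg/kg replicate 4 and -0.15 without 5 mg/kg replicate 1. The other inhibitors, namely antithrombin (SERPINC1), heparin cofactor II (SERPIND1), the plasmin inhibitor SERPINF2, protein C (PROC), kininogen (KNG1), the alpha-1-microglobulin and bikunin precursor AMBP and the phospholipid-binding APOH, had log2 fold changes of 0.025 (KNG1) to 0.27 (APOH) at 0.5 mg/kg and -0.12 (KNG1) to 0.23 (SERPINF2) at 5 mg/kg.

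Complement genes, together with fibrinogen, had the highest median differences of the role groups. Of 9 measured members, 7 had a mean above solvent at 0.5 mg/kg (median log2 fold change 0.53) and 8 at 5 mg/kg (median 0.34), against 46.9% and 49.8% of all genes. The test called 0 of 9 at either dose (background 0% and 0.0436%). C3, the component on which all complement pathways meet, ran through 846, 2248 and 3837 CPM in solvent birds, 3235, 2377, 6164, 1933 and 3430.3 CPM at 0.5 mg/kg and 4116, 4305, 2032, 3278 and 3948 CPM at 5 mg/kg. 4 of 5 birds at either dose were above the solvent mean, and 3 of 5 at 5 mg/kg were above every solvent bird. Its log2 fold changes were 0.61 (SE 0.35, adjusted p 0.676 in edgeR) at 0.5 mg/kg and 0.65 (SE 0.35, adjusted p 0.546) at 5 mg/kg, and 0.29 at 0.5 mg/kg without replicate 3 of that dose. Within the numbers 1 to 3 the values for C3 were 1.32 and 1.15 at 0.5 and 5 mg/kg, and within 4 to 6 they were -0.13 and 0.30. The highest C3 level, 6164 CPM, was in 0.5 mg/kg replicate 3, and the lowest, 846 CPM, in solvent replicate 1.

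C5, whose cleavage starts the pore, ran through 175, 288 and 352 CPM in solvent birds, 456, 346, 513, 294 and 430.2 CPM at 0.5 mg/kg and 372, 344, 279.9, 376 and 236 CPM at 5 mg/kg. All 5 birds at 0.5 mg/kg were above the solvent mean and 3 were above every solvent bird. Its log2 fold change was 0.53 (SE 0.20, adjusted p 0.536 in edgeR, unadjusted p 0.0161) at 0.5 mg/kg and 0.19 (SE 0.20, adjusted p 0.791) at 5 mg/kg. Without solvent replicate 1 it was 0.42 at 0.5 mg/kg and 0.079 at 5 mg/kg. C8A, the alpha chain of the pore component C8, ran through 316, 402 and 685 CPM in solvent birds, 632, 572, 975, 395 and 797 CPM at 0.5 mg/kg and 679, 595, 445, 512 and 623 CPM at 5 mg/kg. Its log2 fold change was 0.58 (SE 0.23, adjusted p 0.545, unadjusted p 0.0212) at 0.5 mg/kg and 0.34 (SE 0.23, adjusted p 0.642) at 5 mg/kg. Without 0.5 mg/kg replicate 3, the bird with 975 CPM, it was 0.41 at 0.5 mg/kg. C5 and C8A were the 2 members with an unadjusted p under 0.05 at 0.5 mg/kg, and C6 was the 1 member with one at 5 mg/kg, all of them higher than solvent. Of all genes 3.83% were higher and 4.42% lower by that rule at 0.5 mg/kg, and 4.95% higher and 4.82% lower at 5 mg/kg, so the members' counts are near the general share.

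In the fit on dose alone, C6, the pore component that binds cleaved C5, had the highest log2 fold change of the members at both doses. C6 lies on the Z chromosome, and its lower values with number class in the fit are given below. It ran through 159, 288 and 486 CPM in solvent birds, 530.3, 600.3, 927, 234 and 389.9 CPM at 0.5 mg/kg and 769, 932, 477, 409 and 218 CPM at 5 mg/kg. 4 of 5 birds at either dose were above the solvent mean, with 3 of 5 at 0.5 mg/kg and 2 of 5 at 5 mg/kg above every solvent bird. The log2 fold change was 0.89 (SE 0.39, adjusted p 0.481 in edgeR, unadjusted p 0.0373) at 5 mg/kg, or 1.85-fold, and 0.82 (SE 0.39, adjusted p 0.609) at 0.5 mg/kg, or 1.77-fold. It was 0.53 at 0.5 mg/kg without replicate 3 of that dose. MASP2, a protease that starts the lectin pathway, ran through 16.8, 40.4 and 52.4 CPM in solvent birds, 44.7, 47.7, 81.7, 22.9 and 87.5 CPM at 0.5 mg/kg and 34.0, 121, 45.7, 59.8 and 43.9 CPM at 5 mg/kg. 4 of 5 birds at either dose were above the solvent mean and 2 of 5 above every solvent bird. Its log2 fold changes were 0.68 (SE 0.40) and 0.78 (SE 0.40) at 0.5 and 5 mg/kg, and 0.37 at 5 mg/kg without replicate 2, the bird with 121 CPM. Those of the related protease MASP1 were -0.063 (SE 0.22) and 0.031 (SE 0.22). The inhibitor CFI, which cuts C3b, was at -0.034 and -0.13. C3 and MASP2 were singled out after their values were seen.

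C6 and its neighbour C7, the next pore component, lie side by side on the Z chromosome and had lower means in the birds numbered 4 to 6. C6 ranged over 159 to 932 CPM in the 9 birds numbered 1 to 3 (mean 588 ± 252) and 185 to 409 CPM in the 7 numbered 4 to 6 (mean 288 ± 87.4). C7 ranged over 55.0 to 139.6 CPM (mean 86.7 ± 24.9) and 21.3 to 74.8 CPM (mean 46.6 ± 20.2) in the same classes. The classes overlapped for both genes, with solvent replicate 1 the lowest C6 value of all birds, and 0.662% of all genes had every bird of 4 to 6 below every bird of 1 to 3.

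In a fit with dose and class, the log2 difference of 4 to 6 against 1 to 3 was -0.90 (SE 0.27, adjusted p 0.169, unadjusted p 0.00387) for C6 and -0.92 (SE 0.26, adjusted p 0.150, unadjusted p 0.00313) for C7 in edgeR's quasi-likelihood test. So 0 of 29 members passed, where 1.17% of all genes were called lower in 4 to 6 and 0.0727% higher, and 24.8% of Z-linked genes were called lower. C6 and C7 were the 2 members lower at an unadjusted p under 0.05 (background 5.19%). DESeq2 called 2 members, C6 and C7, among 320 genes called in all, and limma-voom 0 members among 172 genes. Without solvent replicate 1, edgeR called C6 (adjusted p 0.0251) among 158 genes, against 171 genes in the main fit. C8A and C8B, which are not on Z, had class differences of -0.0050 (SE 0.20) and -0.30 (SE 0.33). With class in the fit, the dose differences of C6 were 0.70 at 5 mg/kg and 0.64 at 0.5 mg/kg. Within the numbers 1 to 3 they were 1.04 and 0.96, and within 4 to 6 0.31 and 0.30. C7 had dose differences of 0.15 (SE 0.39) and 0.062 (SE 0.39).

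**Figure D2:**
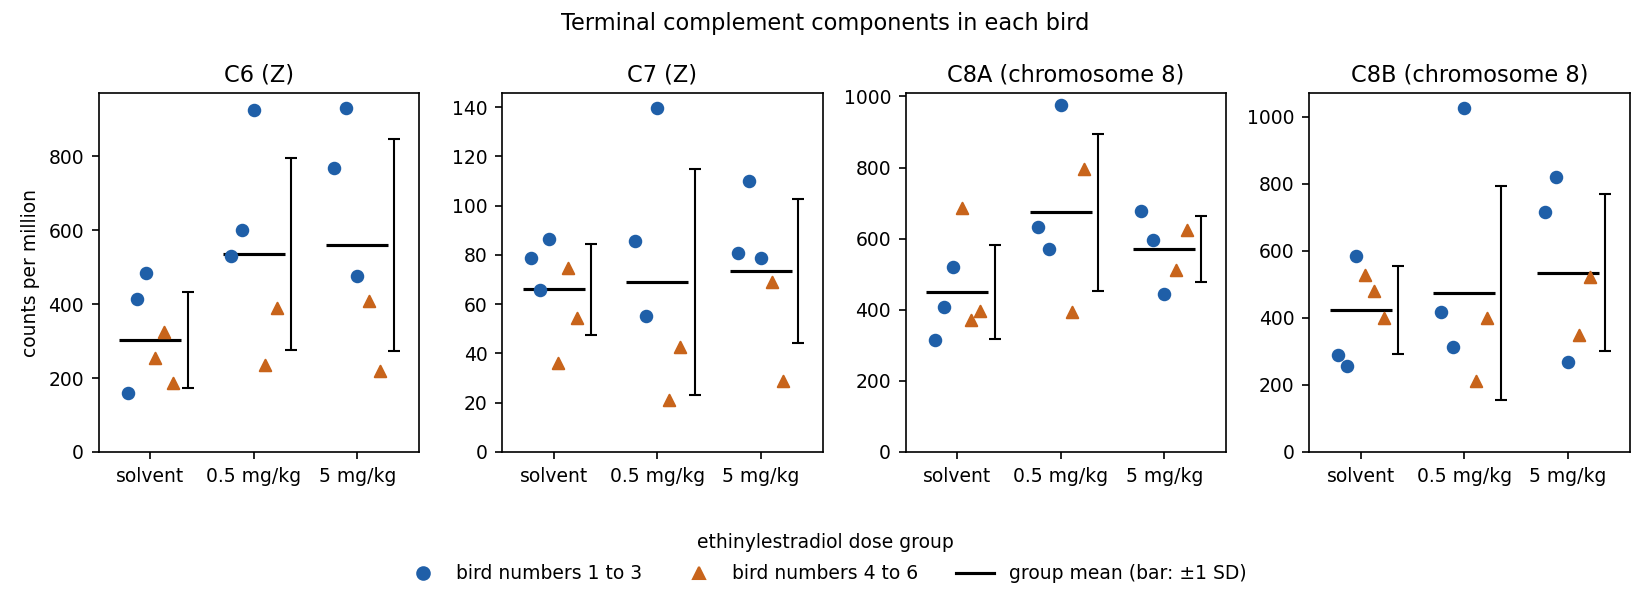
CPM (vertical axes, linear, from 0) of the Z-linked genes C6 and C7 and of C8A and C8B on chromosome 8 in each bird by dose group (horizontal axis), with symbols for the class of bird numbers, a line at the group mean and a bar of ±1 SD. The birds numbered 4 to 6 lie low for C6 (185 to 409 CPM against 159 to 932 CPM) and C7, and are mixed among the others for C8A.

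The other acute phase genes measured were CP and FN1. CP, ceruloplasmin, the copper-carrying ferroxidase, ran through 228, 383 and 870.3 CPM in solvent birds, 492, 712, 833, 330.3 and 575 CPM at 0.5 mg/kg and 555, 1091, 468, 484 and 581 CPM at 5 mg/kg. All 5 birds at 5 mg/kg were above the solvent mean, and 1 was above every solvent bird. The log2 fold change of CP was 0.47 (SE 0.33, adjusted p 0.658 in edgeR) at 5 mg/kg and 0.36 (SE 0.33, adjusted p 0.812) at 0.5 mg/kg. At 5 mg/kg it was 0.18 without replicate 2 of that dose and 0.75 without solvent replicate 4, and for 0.5 mg/kg 0.20 without replicate 3 of that dose and 0.64 without solvent replicate 4. FN1, fibronectin, an adhesive plasma and matrix protein, ran through 493, 590.4 and 774 CPM in solvent birds, 562, 842, 765, 646 and 847 CPM at 0.5 mg/kg and 517, 821, 428, 809 and 355 CPM at 5 mg/kg, with log2 fold changes of 0.26 (SE 0.22) and -0.060 (SE 0.22).

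Read over all 29 members, more means lay above solvent than below at both doses, and no member passed the test. At 5 mg/kg 23 of 29 were above solvent with a median log2 fold change of 0.19, where 49.8% of all genes were above and their median was -0.0017. At 0.5 mg/kg 25 of 29 were above with a median of 0.26, against 46.9% of all genes and a median of -0.018. Both comparisons share the 6 solvent birds. edgeR called 0 of 29 members at 5 mg/kg, where it called 0.0436% of all genes, and 0 of 29 at 0.5 mg/kg, where it called 0%. At an unadjusted p under 0.05 there was 1 member higher at 5 mg/kg (background 4.95%) and 0 lower (4.82%), and 2 higher at 0.5 mg/kg (3.83%) and 0 lower (4.42%). DESeq2 and limma-voom also called 0 members in either comparison. The count of members whose dosed birds all lay above every solvent bird was 0 at 5 mg/kg (background 0.553%) and 0 at 0.5 mg/kg (0.902%).

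Nearly all of the median shift over the list at 5 mg/kg rested on 1 bird. Without 5 mg/kg replicate 2, 16 of 29 members were above solvent and the median was 0.0077. Without both that bird and solvent replicate 1, a choice made after seeing the data, 15 of 29 were above at 5 mg/kg with a median of 0.0096, and 24 of 29 at 0.5 mg/kg with a median of 0.20. Fibrinogen kept log2 fold changes of 0.37 (FGA), 0.38 (FGB) and 0.39 (FGG) at 5 mg/kg in that fit, and C6 0.50. At 0.5 mg/kg the median stayed between 0.21 and 0.33 when any 1 bird was left out.

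**Figure D3:**
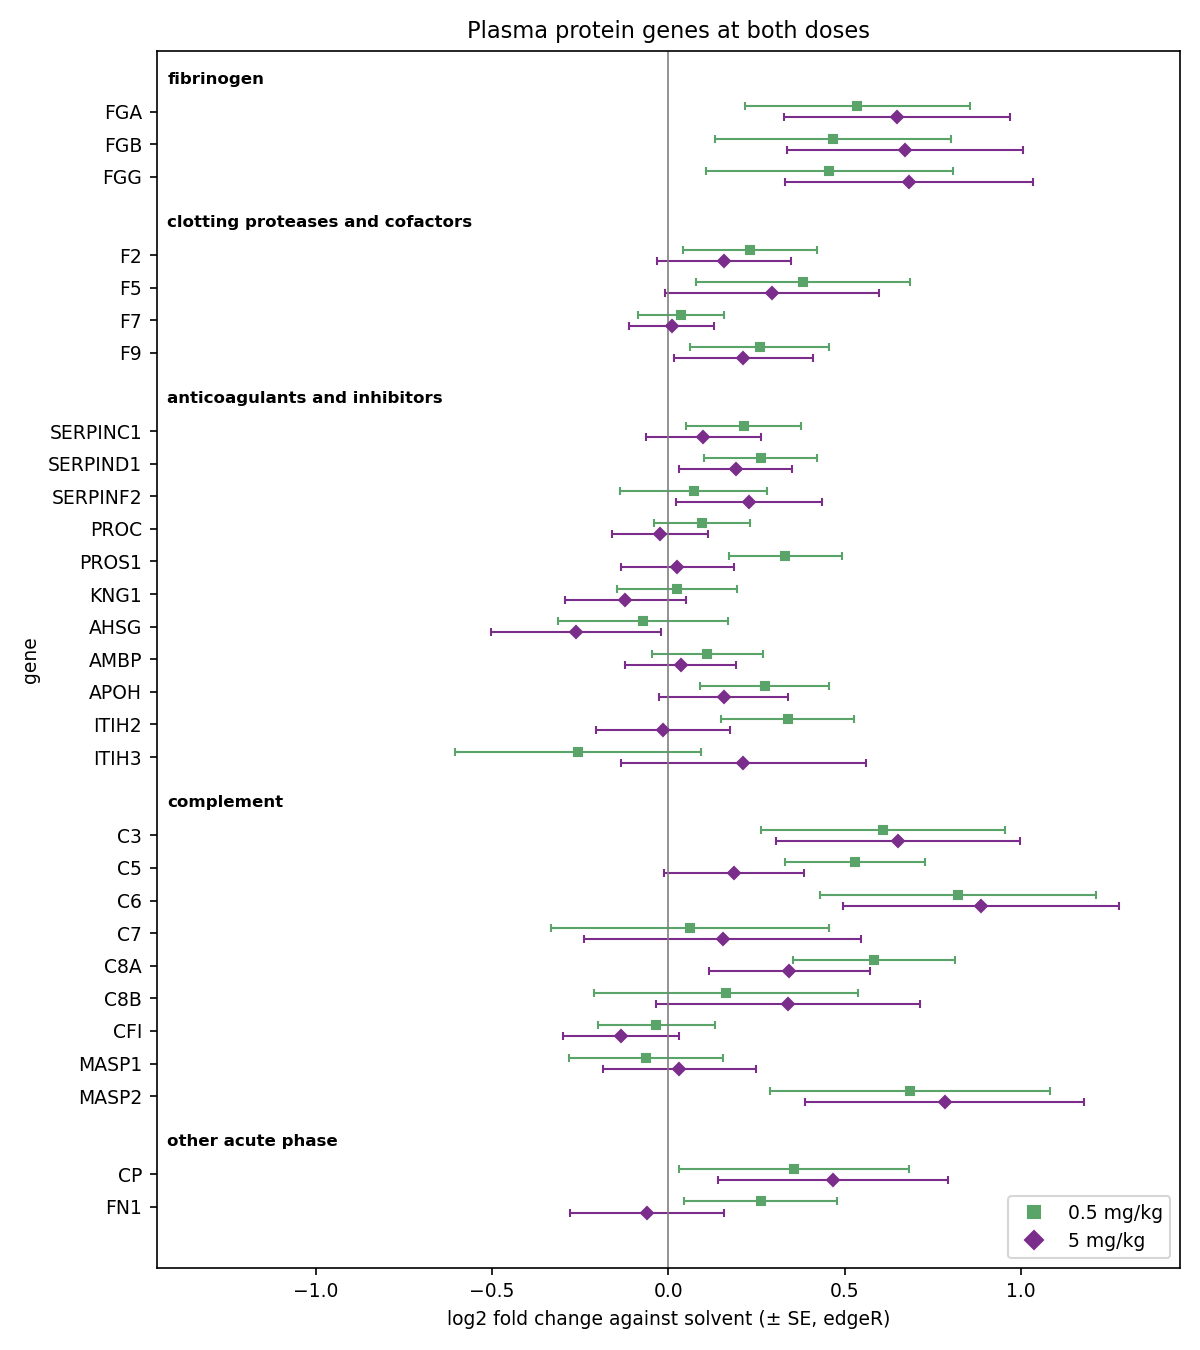
Log2 fold change against solvent with its standard error (horizontal axis) for each of the 29 members (vertical axis, in role groups) at 0.5 mg/kg (squares) and 5 mg/kg (diamonds), from the edgeR fit. Fibrinogen, C3, C6 and MASP2 lie farthest to the right at 5 mg/kg, F7 and MASP1 lie near 0, and AHSG lies lowest at 5 mg/kg (-0.26).

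Between the doses the members did not separate. 12 of 29 were higher at 5 than at 0.5 mg/kg (background 53%), the median log2 difference was -0.071 (all genes 0.019), and edgeR called 0 of 29, where it called 0% of all genes. At an unadjusted p under 0.05 there were 0 members (background 7.25%), and DESeq2 and limma-voom called 0. The test of any difference among the 3 groups called 0 of 29 members and 0% of all genes, and its lowest unadjusted p among members was 0.0472, for C5, the 1 member under 0.05 (background 9.48%).

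Birds of the same dose differed widely and not in the same genes. 5 mg/kg replicate 2 was above the gene mean for 28 of 29 members, AHSG being the exception, and led all birds for FGA, FGB, F5, ITIH3, MASP2 and CP among others. 0.5 mg/kg replicate 3 was the highest bird for C3, C5, C7, C8A and C8B and for no other member, and its complement genes summed to 10446 CPM, against 3652 to 6341 CPM in the other 4 birds of that dose. Plasma protein genes outside the members stood apart in it too. HPX was at 29931 CPM, against 2743 to 5436 CPM in those 4 birds. ORM2 was at 4484 CPM, against 229 to 618 CPM, and TF at 56944 CPM, against 7127 to 12565 CPM. Its ALB, at 86502 CPM, was below theirs, 102319 to 156309 CPM. HPX, ORM2 and TF were picked out after their values were seen. 5 mg/kg replicate 5 was the lowest of all birds for 7 members, including F5, KNG1, ITIH2 and CFI, while its C3 was 3948 CPM. Solvent replicate 1 was lowest for 13, including C3, C5, C6, C8A and CP, and also had the lowest ALB of the 16 birds, at 53516 CPM.

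**Figure D4:**
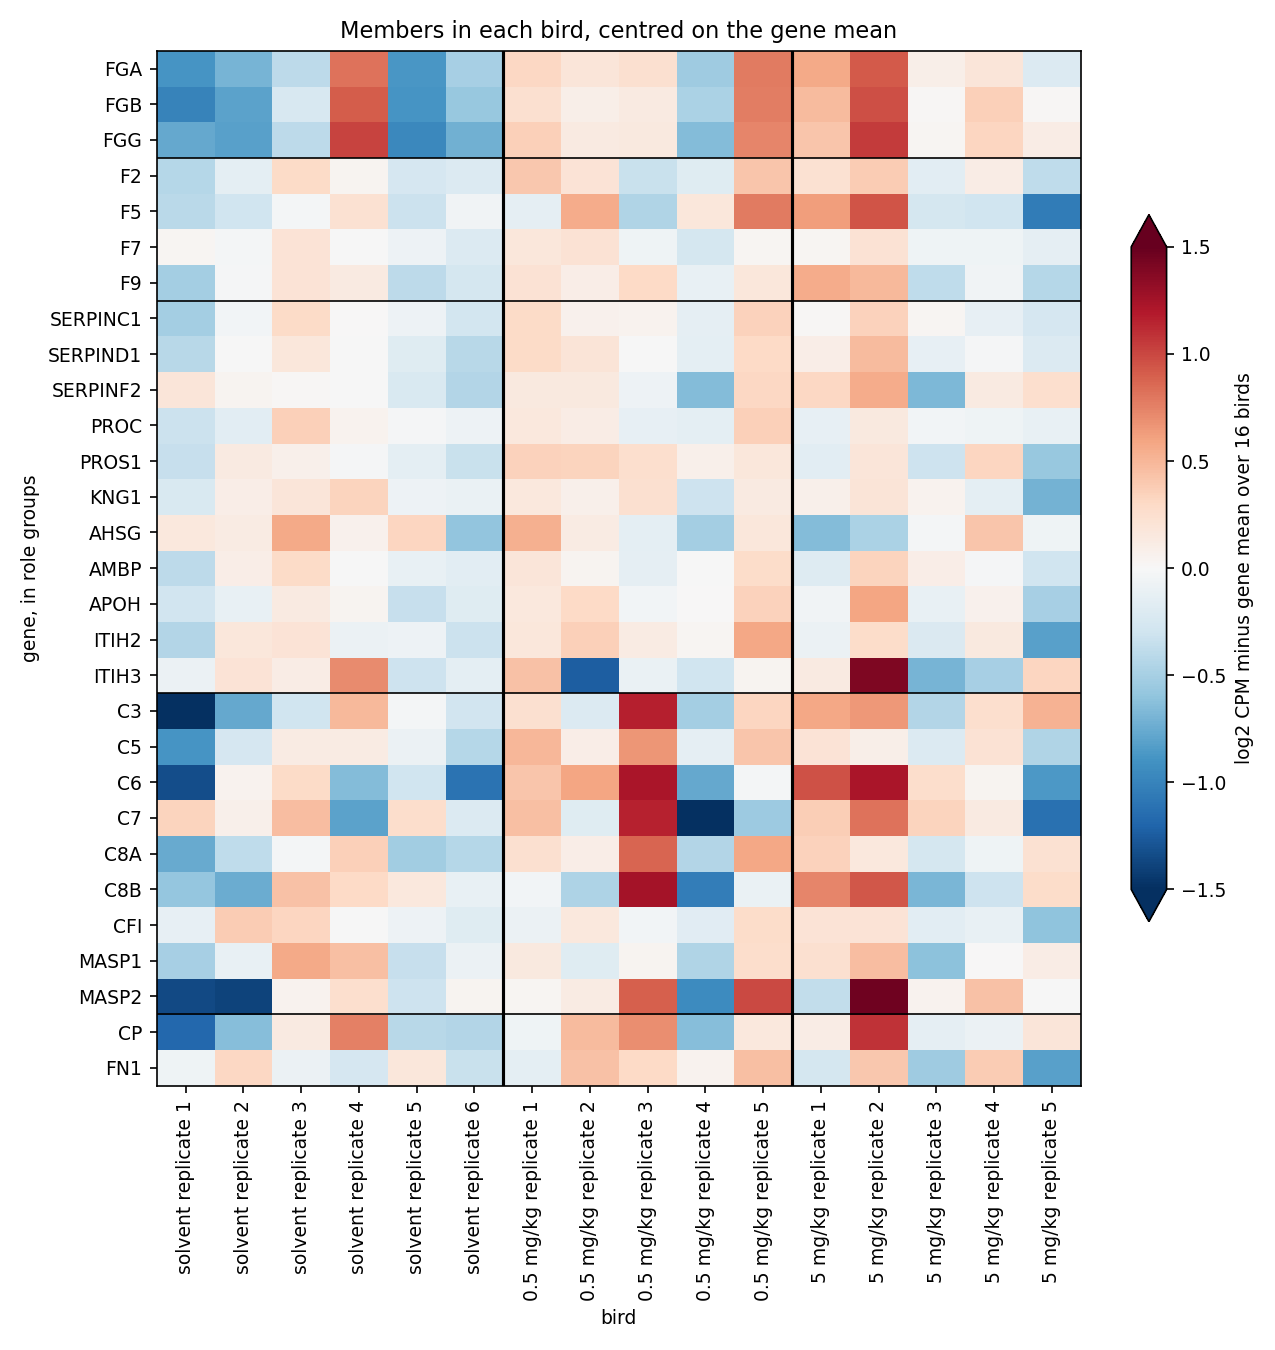
Log2 CPM minus the gene's mean over the 16 birds (colour, capped at ±1.5) for the 29 members (rows, in role groups divided by lines) and the 16 birds (columns, dose groups divided by lines). 5 mg/kg replicate 2 is red in 28 of 29 rows, solvent replicate 1 is blue in most rows, and the 3 fibrinogen rows have nearly the same pattern.

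The number classes were also compared for the whole list, since they separate the birds in every dose group. Within the numbers 1 to 3, 3 members had all 3 birds at 5 mg/kg above the 3 solvent birds (FGA, FGB and FGG; background 5.59% of all genes) and 1 had all 3 below (AHSG; 5.88%). At 0.5 mg/kg 7 members had all 3 birds above (FGA, FGB, FGG, PROS1, C3, C6 and C8A; 5.83%) and 0 below (5.24%). Within 4 to 6, with 2 dosed and 3 solvent birds, 1 member lay above at 5 mg/kg (SERPINF2; 9.98%) and 1 below (KNG1; 9.51%), and 3 above at 0.5 mg/kg (PROS1, AMBP and ITIH2; 11.8%) with 0 below (12.2%). The class difference of the dose effect was tested for each gene and called 0 of 29 members and 0% of all genes at either dose in edgeR. At an unadjusted p under 0.05 it gave 1 member at 5 mg/kg (F5) and 1 at 0.5 mg/kg (C3), against 4.15% and 3.02% of all genes. DESeq2 and limma-voom called 0 members.

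Other genes of these pathways, taken from 5 gene lists, gave no call in edgeR in either comparison. Means above solvent were found for 9 of 19 at 0.5 mg/kg (median -0.11) and 7 of 19 at 5 mg/kg (median -0.064) among other coagulation and fibrinolysis genes. SERPINA10, the protein Z-dependent inhibitor of factor Xa, averaged 228 ± 62.2 CPM in solvent birds, 357 ± 98.0 at 0.5 mg/kg and 363 ± 114 at 5 mg/kg. Its log2 fold changes were 0.65 (SE 0.24, adjusted p 0.536) and 0.67 (SE 0.24, adjusted p 0.349), and it was named after its values were seen. Thrombomodulin (THBD), the endothelial receptor through which thrombin activates protein C, averaged 17.9 ± 2.53, 12.97 ± 1.76 and 14.1 ± 1.39 CPM, with log2 fold changes of -0.47 (SE 0.12, adjusted p 0.379) and -0.35 (SE 0.12, adjusted p 0.349). VWF, the von Willebrand factor of endothelium and thrombocytes, was at 0.38 and -0.56 (SE 0.27 and 0.27). Endothelial markers as a list, which includes VWF, were above solvent for 1 of 15 genes at 0.5 mg/kg and 1 of 15 at 5 mg/kg. The 1 gene above at 0.5 mg/kg was VWF itself. The part of endothelial cells in the THBD and VWF values was not tested.

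Other complement genes were above solvent in 8 of 16 at 0.5 mg/kg (median 0.0083) and 8 of 16 at 5 mg/kg (median -0.027). C1QB, a chain of C1q made by macrophages, averaged 24.5 ± 4.97, 16.8 ± 3.10 and 18.2 ± 5.57 CPM (log2 fold changes -0.54 and -0.43, adjusted p 0.529 and 0.494 in edgeR). Other acute phase and plasma proteins were above solvent in 14 of 18 at 0.5 mg/kg (median 0.29) and 14 of 18 at 5 mg/kg (median 0.12). Among them IGFBP1, a carrier of insulin-like growth factors, had log2 fold changes of 2.48 (SE 0.62) and 0.82 (SE 0.60), and the broad protease inhibitor A2M of 0.38 (SE 0.24) and 0.47 (SE 0.24). The genes of the vitamin K cycle and of the secretion of clotting factors, which include the carboxylase GGCX and the cargo receptor pair LMAN1 and MCFD2, were above solvent in 5 of 10 at 0.5 mg/kg (median -0.016) and 4 of 10 at 5 mg/kg (median -0.087). The tyrosylprotein sulfotransferase TPST1 was at -0.17 and -0.65 there, and MCFD2 at 0.12 and -0.22.

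Regulators of the acute phase response included genes with larger differences than most members, still short of the threshold over all genes. The list as a whole was above solvent in 18 of 28 at 0.5 mg/kg (median 0.082) and 16 of 28 at 5 mg/kg (median 0.043). CEBPD, a factor induced early in the acute phase in mammals, stood at 239.6, 196, 213, 291 and 174 CPM at 0.5 mg/kg against 77.2 to 144 CPM in the 6 solvent birds, with no overlap, and at 106, 155, 111, 158 and 154 CPM at 5 mg/kg. Of all genes, 0.902% had every bird at 0.5 mg/kg above every solvent bird. CEBPD was 1 of 28 genes on its list and was named after their values were seen. Its log2 fold change was 1.003 (SE 0.18, adjusted p 0.136 in edgeR) at 0.5 mg/kg and 0.30 (SE 0.18, adjusted p 0.593) at 5 mg/kg. CEBPA, a related factor of the same list, also named after its values were seen, went the other way at 0.5 mg/kg. It stood at 152, 139, 127, 180 and 134 CPM there, against 159 to 410 CPM in the solvent birds. At 5 mg/kg CEBPA was at 287, 85.0, 263, 110 and 286 CPM. STAT3, which carries the interleukin 6 signal to fibrinogen genes in mammals, was named after its values were seen. It had log2 fold changes of 0.40 (SE 0.18, adjusted p 0.600) and 0.80 (SE 0.18, adjusted p 0.126), and averaged 202 ± 44.9, 268 ± 40.2 and 352 ± 87.6 CPM.

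**Figure D5:**
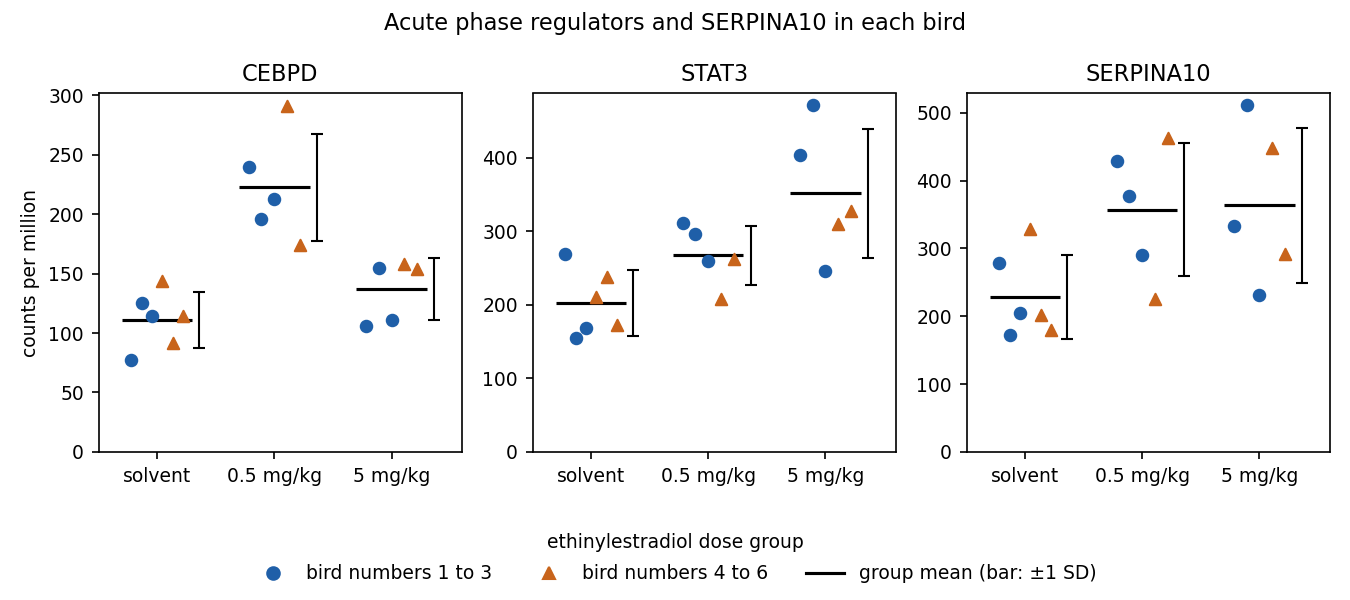
CPM (vertical axes, linear, from 0) of CEBPD, STAT3 and SERPINA10 in each bird by dose group (horizontal axis), with symbols for the class of bird numbers, a line at the group mean and a bar of ±1 SD. The CEBPD birds at 0.5 mg/kg (174 to 291 CPM) all lie above the solvent birds (77.2 to 144 CPM), while the groups overlap for STAT3 and SERPINA10. Such a separation was found in 0.902% of all genes.

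Markers of other cell types were summed in the same birds, and their part in the results on the members was not tested. Macrophage and Kupffer cell markers were above solvent for 0 of 9 and 0 of 9 genes at 0.5 and 5 mg/kg, with summed levels of 431 to 914, 290.4 to 613 and 368 to 513 CPM in the solvent, 0.5 mg/kg and 5 mg/kg birds. Endothelial markers were above for 1 of 15 and 1 of 15, with sums of 186 to 270.4, 172 to 244 and 123 to 247 CPM. Thrombocyte markers were above for 11 of 11 and 0 of 11, with sums of 57.5 to 139.8, 65.3 to 189 and 56.4 to 78.7 CPM, and lymphocyte markers for 1 of 8 and 0 of 8, with sums of 10.1 to 70.8, 10.7 to 29.6 and 8.80 to 18.8 CPM. Erythroid markers were above for 4 of 4 and 0 of 4, with sums of 108 to 359, 93.7 to 493 and 48.7 to 392 CPM. Stellate cell and fibroblast markers were above for 7 of 13 and 8 of 13 and cholangiocyte markers for 0 of 7 and 4 of 7, with sums of 453 to 741, 371 to 611 and 394 to 828 CPM and of 94.1 to 204, 97.8 to 144 and 116 to 215 CPM. Hepatocyte markers were above for 9 of 12 and 7 of 12, with sums of 83889 to 172063, 144207 to 212050 and 122112 to 163827 CPM. No matched marker was at 0 in every bird.

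Solvent replicate 1, the lowest bird for 13 members and for ALB, also stood apart in these markers. Its lymphocyte markers summed to 70.8 CPM, against 10.1 to 17.9 CPM in the other 5 solvent birds. Its macrophage and Kupffer cell markers summed to 914 CPM, against 431 to 566 CPM, and its cholangiocyte markers to 204 CPM, against 94.1 to 138 CPM. Its hepatocyte markers summed to 83889 CPM, most of it ALB itself at 53516 CPM, below the 125153 to 172063 CPM of the others. Its erythroid markers, at 108 CPM against 223 to 359 CPM, and its thrombocyte markers, at 57.5 CPM against 79.9 to 139.8 CPM, were also below. Its endothelial markers and its stellate cell and fibroblast markers lay within the range of the other solvent birds. Without this bird, lymphocyte markers were above solvent for 5 of 7 at 0.5 mg/kg and 0 of 7 at 5 mg/kg, macrophage and Kupffer cell markers for 1 of 9 and 0 of 9, thrombocyte markers for 7 of 11 and 0 of 11, cholangiocyte markers for 4 of 7 and 5 of 7 and hepatocyte markers for 9 of 12 and 4 of 12. The members above solvent then numbered 24 of 29 at 0.5 mg/kg (median 0.21) and 20 of 29 at 5 mg/kg (median 0.14).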

How the data were processed

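The authors deposited estimated counts, 1 row per transcript, and the submitters' processing notes name kallisto. No source used here gives its version, the transcriptome or the build. The 47418 rows were summed to 20308 genes by their NCBI gene numbers and rounded to whole counts. 18900 genes matched the name table of Coturnix japonica 2.1, used only for names, chromosomes and neighbours. Genes were kept by filterByExpr (minimum count 10, minimum total 15). edgeR 4.0.16 in R 4.3.3 fitted 1 quasi-likelihood model with 3 dose groups to all 16 libraries (TMM, 13 residual degrees of freedom). P-values were adjusted over all genes by Benjamini-Hochberg, with a threshold of 0.05, and p-values printed as adjusted come from edgeR unless another tool is named. The class of bird numbers was fitted beside dose, alone and with an interaction. Log2 CPM used a prior count of 2. Alternatives used DESeq2 1.42.0 and limma-voom (limma 3.58.1), other scalings, filters and blocks, and left out birds. The fit was also run on counts simulated from its own model, without outlying birds or number classes. That run cannot show how either affects these results.

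Correlations of log2 CPM over all 120 pairs of libraries were 0.914 to 0.968, so none were identical. The labels describe separately dosed birds. The members and gene lists were chosen with earlier results of these data known. Values in every group were given for the fibrinogen chains, the 2 members of each role group with the lowest p for any dose difference, and the members with the highest and lowest log2 fold change in a comparison; of other lists, for the 2 genes with the lowest such p, except that some results are not reported here. Reads matching several transcripts are divided among them by kallisto, and no source says whether strand was used, so counts of overlapping genes are uncertain.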

Additional observations from a re-analysis of the deposited data

Results flagged for a closer look

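Solvent replicate 4 stood far above the other solvent birds for all 3 fibrinogen chains, at about 10100 CPM of FGA (next highest solvent bird 4370), 13900 CPM of FGB (next 6320) and 9430 CPM of FGG (next 3570). The gap to the next bird was 0.819, 0.745 and 0.834 of the range of the 6 birds, above Dixon's 95% critical value for 6 samples. Since the chains share almost all of their spread, these are 1 observation rather than 3. CP in 5 mg/kg replicate 2 lay at 1090 CPM, next to 581 in the nearest of the 4 other birds, a gap of 0.819 of the range. In all, 4 of 51 gene and group combinations were past the critical value for their number of birds. Chance gives about 1 in 20 for independent normal values. The genes here share the same birds and some were named after their values were seen, so these rates cannot be set against each other.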

How the results depend on the processing

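The count of members called was 0 in each dose comparison under every alternative run. Over all genes, the count of 6 at 5 mg/kg became 1 with library totals only, 160 with DESeq2, 2 with limma-voom, 0 with only 2 groups in the fit, 3 with number class as a covariate, 0 and 1 within the numbers 1 to 3 and 4 to 6, and 3 without solvent replicate 1 and 5 mg/kg replicate 2. The count of 0 at 0.5 mg/kg became 42 with DESeq2, 6 with only 2 groups and 1 without those 2 birds, and that between doses 26 with DESeq2. Leaving out 1 bird at a time gave 0 to 21, 0 to 1 and 0 to 2 genes at 5 mg/kg (lowest without solvent replicate 3, highest without 5 mg/kg replicate 4), 0.5 mg/kg and between doses, and 0 members. Members above solvent numbered 16 to 26 at 5 mg/kg and 22 to 28 at 0.5 mg/kg when 1 bird was left out, with medians of 0.0077 to 0.25 and 0.21 to 0.33. They were 14 (median -0.014) at 5 mg/kg within 4 to 6 and 15 without the 2 birds. Members higher at 5 than at 0.5 mg/kg numbered 4 to 17 when 1 bird was left out, with medians of -0.17 to 0.0086. These members were 19 (median 0.039) with library totals and 4 without the 2 birds, and the median was 0.037 within 1 to 3. Library totals moved the median of all genes at 0.5 mg/kg to -0.20, against 0.10 for the members. Members above solvent then numbered 19 of 29 at 0.5 mg/kg and 20 of 29 at 5 mg/kg, against 25 and 23 in the main fit.

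Named members that changed sign at 5 mg/kg were PROS1 (-0.040 with library totals, -0.051 within 1 to 3, -0.090 without the 2 birds) and ITIH2 (0.0028 within 1 to 3). With birds of 4 to 6 fitted alone they were FGA (-0.014), F9 (-0.083), F5 (-0.61), FN1 (0.015), CP (-0.048), AHSG (0.20) and ITIH3 (-0.20), and at 0.5 mg/kg CP (-0.27) and C3 (-0.13). Without the 2 birds F5 was -0.042 and ITIH3 -0.28. With 1 bird left out, values at 5 mg/kg ran from -0.092 to 0.13 for PROS1 (lowest without 5 mg/kg replicate 4, highest without 5 mg/kg replicate 5), -0.12 to 0.12 for ITIH2 (lowest without 5 mg/kg replicate 2, highest without 5 mg/kg replicate 5), -0.21 to 0.076 for FN1 (lowest without 5 mg/kg replicate 2, highest without 5 mg/kg replicate 5) and -0.25 to 0.39 for ITIH3 (lowest without 5 mg/kg replicate 2, highest without 5 mg/kg replicate 3), and at 0.5 mg/kg from -0.21 to 0.044 for AHSG (lowest without 0.5 mg/kg replicate 1, highest without 0.5 mg/kg replicate 4). The class term called 2 members with DESeq2, among 320 genes called against 171 in the main fit, and 0 to 1 with 1 bird left out. The causes were not tested. Of 602 pairs of a result and an alternative that left out no single bird, 564 kept the direction and the side of the threshold (for counts, within 1.5 times). A median was taken as kept if its sign held and it moved by less than 0.267, which is larger than each median in the main fit. Of the 564, 416 were fold changes of single named genes, none of them called in the main fit. The share therefore says little about how firm the medians are.

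With the replicate number as a block, edgeR called 2 genes at 5 mg/kg, and 1 with the bracketed bird number, 0 members either way, and PROS1 was -0.036. Deviations of same-numbered birds correlated between -0.084 and 0.20 over 15 pairs, 2 of them above 0.1. No such correlation of differently numbered birds is given beside them. They therefore cannot show whether same-numbered birds shared anything besides the number. All 29 members passed the filter on low counts, and their spread between birds limits what could be called, with standard errors of 0.12 to 0.40 at 5 mg/kg.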

Other observations

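Several members are counted on more than 1 transcript row, and the rows of a gene did not all differ alike between the dose groups. These rows carry no transcript name in the deposited table and kallisto divides shared reads among them, so they are given as values only. F5 had 3 rows: the row with 47.7% of its counts averaged 548 ± 239.8, 647 ± 265 and 553 ± 261 CPM (SD) in the solvent, 0.5 mg/kg and 5 mg/kg birds. Its next row, with 40.2%, averaged 347 ± 111, 546 ± 159 and 561 ± 342 CPM. Both rows of C6 had higher means in dosed birds, 156 ± 80.7, 302 ± 172 and 311 ± 189.5 CPM for one and 147 ± 56.7, 234 ± 93.8 and 250.3 ± 111 CPM for the other.

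MASP2 had 6 rows, of which 2 held 53.6% and 40.4% of its counts. The larger averaged 16.2 ± 7.23, 31.4 ± 14.7 and 35.1 ± 25.6 CPM and the other 17.4 ± 8.33, 22.3 ± 11.6 and 21.8 ± 6.47 CPM. FN1 also had 6 rows, 3 of them listed at 0 in every bird. Its row with 18.5% of the counts averaged 107 ± 18.3, 165 ± 30.6 and 107 ± 27.2 CPM, while the row with 63.4% averaged 389 ± 80.4, 444 ± 89.6 and 375 ± 145 CPM.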
